A study of Mus musculus with 4 samples.

Results

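The 10 genes described here are 8 granzymes (Gzma, Gzmb, Gzmc, Gzmd, Gzme, Gzmf, Gzmg and Gzmk), the pore-forming protein perforin (Prf1) and Mcpt8, a mast cell protease family member that lies beside the granzymes on chromosome 14. They were taken by symbol from the 27998 genes of the deposited count tables. All 10 were found, and all 10 had at least 20 unique molecular identifiers (UMIs, which count captured transcript molecules) in the lymphocytes. The cells were live CD45+ cells sorted from transplanted tumours of wt 129S6 mice and profiled by droplet-based 3′ single-cell RNA sequencing. Mice received 200 µg of the RMP1-14 antibody (anti-PD-1), of the 9D9 antibody (anti-CTLA-4), of both, or of rat IgG2a isotype control antibody into the peritoneum on days 3, 6 and 9 after transplant. Both antibodies block checkpoint receptors that restrain T cells. Each group was 1 library, so no group had a replicate, no test between groups was possible, and library, processing and treatment cannot be told apart. The labels do not say how many mice stand behind a library.

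The authors' table listed 14491 cells found in the matrices, and 4987 of them fell into its 7 lymphocyte clusters, with 1031 cells in the anti-PD-1 library, 1060 in the anti-CTLA-4 library, 1453 in the combination library and 1443 in the control library. Their median depth was 1909, 2322.5, 1710 and 1855 UMIs per cell in the same order. Cluster 5 was NK cell-like (Klra9, Klrb1c, Ncr1), cluster 10 was regulatory T cell-like (Foxp3, Ikzf2, Il2ra), cluster 8 was led by Cd8b1 and Cd8a, cluster 3 by Cd4, cluster 6 by Cd7, Bcl2, Ltb and Il7r, and cluster 9 by cell cycle genes. Cluster 14 was led by 6 of the 10 genes themselves (Gzmg, Gzmf, Gzmd, Gzme, Gzmc and Mcpt8) together with Ctsg, so its high level of them is how it was found and not a result. It kept its number: Ncr1, an NK cell receptor, was detected in 89.1% of its cells and Cd3d in 8.48%. Levels are given as counts per 1000000 UMIs of the same cells (CPM), with exact Poisson 95% intervals for levels and exact conditional binomial ones for ratios. These intervals cover counting error only. Because reads were taken from the 3′ end of transcripts, the counts carry no correction for length, and levels of different genes are set side by side only as UMI counts.

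Granzymes are serine proteases stored in the secretory granules of cytotoxic T cells and natural killer (NK) cells. Perforin forms pores in the membrane of the target cell, through which granzymes reach its cytosol. Granzyme B cleaves after aspartate and activates caspases, whereas granzymes A and K cleave after basic residues. Granzymes C to G are found in mice and other rodents, and their activities are less well known. Mcpt8 encodes a granule protease that marks mouse basophils. Regulatory T cells can carry granzyme B as well.

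Of the 10 genes, 7 are neighbours. In GRCm38, Mcpt8, Gzme, Gzmd, Gzmg, Gzmf, Gzmc and Gzmb lie in this order on the minus strand within 180 kb at chr14:56082166-56262260, which holds 9 protein-coding genes. The other two are Ctsg, cathepsin G of myeloid granules, and Gzmn. Gzma (chr13:113093825-113100981) and Gzmk (chr13:113171608-113225908) neighbour each other on the minus strand of chromosome 13, and Prf1 (chr10:61297833-61304680) lies on the plus strand of chromosome 10. The promoters of Gzmc to Gzmg are shown because these 5 genes lead the same cluster. Each line gives the 150 bases before the RefSeq start on the minus strand (RefSeq, GRCm38.p6), read 5′ to 3′, and capitals mark 3 runs of at least 12 bases that all 5 share. The windows are chr14:56234658-56234807 (Gzmc), chr14:56132594-56132743 (Gzmd), chr14:56120626-56120775 (Gzme), chr14:56211408-56211557 (Gzmf) and chr14:56159580-56159729 (Gzmg).
Gzmc: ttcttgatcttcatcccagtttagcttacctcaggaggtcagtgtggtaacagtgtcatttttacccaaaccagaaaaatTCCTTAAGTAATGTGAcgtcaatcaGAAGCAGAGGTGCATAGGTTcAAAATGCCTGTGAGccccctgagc
Gzmd: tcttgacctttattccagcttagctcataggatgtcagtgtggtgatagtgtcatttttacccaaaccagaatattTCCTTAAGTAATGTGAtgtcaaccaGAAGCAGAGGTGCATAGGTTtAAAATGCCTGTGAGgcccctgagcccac
Gzme: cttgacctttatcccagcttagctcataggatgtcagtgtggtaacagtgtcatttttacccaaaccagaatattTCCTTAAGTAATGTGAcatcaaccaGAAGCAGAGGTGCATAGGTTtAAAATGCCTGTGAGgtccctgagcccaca
Gzmf: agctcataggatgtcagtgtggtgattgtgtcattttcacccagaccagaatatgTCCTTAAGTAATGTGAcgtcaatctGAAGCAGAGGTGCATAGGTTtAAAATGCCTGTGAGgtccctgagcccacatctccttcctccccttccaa
Gzmg: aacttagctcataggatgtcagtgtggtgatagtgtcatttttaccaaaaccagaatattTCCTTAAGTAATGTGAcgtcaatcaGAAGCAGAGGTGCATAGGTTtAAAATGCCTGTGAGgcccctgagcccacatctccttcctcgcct

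The 3 runs are 16, 20 and 14 bases long, and each was found in 5 of the 32851 promoters of 27025 RefSeq genes, those printed above. Over 250 bases, the 10 pairs among these 5 promoters were 70.2 to 94.8% identical (median 79.0%), whereas the 35 pairs of 1 of them with another of the 10 genes, Ctsg or Gzmn were 39.9 to 48.3% identical (median 45.6%). The letters TGACGTCA, the cyclic AMP response element, were searched on both strands of the 250 bases. They occurred once in Gzmc, Gzmf and Gzmg, overlapping the end of the first run of capitals, and in 508 of all 32851 promoters (1.55%). The letters TGTGGT, a core of Runx sites, occurred in 2 copies each in Gzmb to Gzmg and Mcpt8 and in 1 copy in Gzma and Prf1, against a share of 14.0% of all promoters with any copy. Gzmk had none in this window. The AP-1 letters TGANTCA occurred once in Gzmb and in 6.75% of all promoters. These are matches of letters and not measured binding.

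The likeness of these genes also bears on how reads were assigned. Of the windows of 98 bases, the read length, in the last 500 bases of their transcripts, none was shared exactly between 2 of these genes. For Gzmd, 62.0% of the windows were within 3 mismatches of another of them, and for Gzme 65.3%, with a nearest distance of 1 mismatch between both genes. The share was 20.3% for Gzmf and 15.6% for Gzmg, and 0% for Gzma, Gzmb, Gzmc, Gzmk, Prf1 and Mcpt8. The split of UMIs between Gzmd and Gzme is therefore uncertain, the more so as the mice were 129S6 and the build named in the submitters' processing notes was mm10. Gzmk overlaps Esm1, which lies on the opposite strand and had 371 UMIs in all listed cells.

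**Figure D1:**
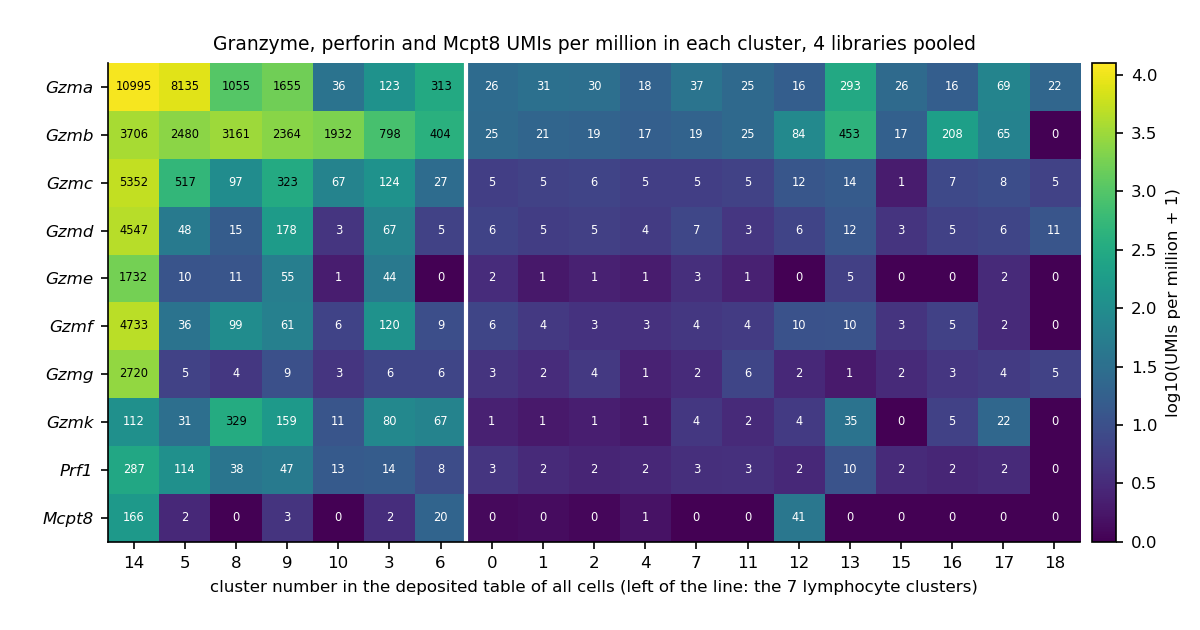
CPM of each gene (vertical axis) in each of the 19 clusters of the deposited table (horizontal axis), 4 libraries pooled; the colour gives log10 of the level plus 1, and cells to the left of the white line are the 7 lymphocyte clusters. Gzma was highest in clusters 14 and 5, Gzmb was spread over 5 clusters, Gzmk was highest in cluster 8, and Gzmd to Gzmg were at 178 or less outside cluster 14.

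Among the lymphocytes as a whole, Gzma and Gzmb were the most abundant of the 10 genes, with 2782 and 2005 CPM over the 4 libraries. Gzmc (662), Gzmf (466), Gzmd (457), Gzmg (239), Gzme (175), Gzmk (119), Prf1 (63.0) and Mcpt8 (18.1) followed. Gzmb had the widest range of carriers: at least 1 UMI was found in 51.8% of the cells, or in 43.0% after each cell was thinned to 1000 UMIs. For Gzma these shares were 32.3% and 27.0%, for Gzmk 15.8% and 8.90%, and for Prf1 9.32% and 3.77%. Across 7 myeloid clusters that should lack these genes (1, 2, 4, 7, 11, 12 and 15, with median depths of 1386.5 to 5816 UMIs), Gzma was found in 3.23 to 9.20% of cells, Gzmb in 4.59 to 8.59%, Gzmk in 0 to 1.06% and Prf1 in 0.403 to 1.23%. Shares at or below those values are background and are not read as expression. Outside the lymphocytes, Gzmb also had 208 CPM in the plasmacytoid dendritic cell-like cluster 16, and none in cluster 18, led by collagen genes. Cluster 13, whose leading genes named no single cell type, held 293 CPM of Gzma and 453 of Gzmb.

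The order of the clusters differed from gene to gene, as the map of levels by cluster shows. Because the clusters were made from the expression of the same cells, these levels are a description. Gzmk ranked 3 and Gzmb 8 among the leading genes of cluster 8, and Gzma 9 among those of cluster 5. Gzma had 10995 CPM in cluster 14 and 8135 in the NK cell-like cluster 5, against 1655 in cluster 9, 1055 in cluster 8, 313 in cluster 6, 123 in cluster 3 and 35.9 in cluster 10. Gzmb lay closer together, with 3706 in cluster 14, 3161 in cluster 8, 2480 in cluster 5, 2364 in cluster 9, 1932 in cluster 10, 798 in cluster 3 and 404 in cluster 6. Gzma in cluster 10 was within its background of 15.6 to 36.7, whereas every lymphocyte cluster lay above the Gzmb background of 16.6 to 83.8. Perforin was highest in the clusters rich in Ncr1: Prf1 had 287 CPM in cluster 14 and 114 in cluster 5, against 47.0 in cluster 9, 38.3 in cluster 8 and at most 14.4 in clusters 3, 10 and 6. Gzmk, a granzyme known from CD8 T cells with a memory-like state, had 329 in cluster 8, 159 in cluster 9, 112 in cluster 14, 79.8 in cluster 3, 66.8 in cluster 6, 30.7 in cluster 5 and 11.2 in cluster 10. Gzmc had 5352 in cluster 14, 517 in cluster 5 and 323 in cluster 9.

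The first comparison asks how the level of each gene in all lymphocytes differed between the antibody libraries and the control library. Gzma, Gzmc to Gzmg, Prf1 and Mcpt8 were at least 2-fold higher in both single-antibody libraries than in the control library, while in the combination library only Gzmk and Mcpt8 were. A gene was counted when its level differed at least 2-fold and the pair held at least 20 UMIs of it, with 0.5 added to both counts. By this rule, 8 of the 10 genes were higher in the anti-PD-1 library, against 2.72% of the 9473 genes compared, and 8 of 10 were higher in the anti-CTLA-4 library, against 3.17% of 9694 genes. In the combination library 2 of 10 were higher, against 2.68% of 9678 genes. None was lower by this rule in any of the 3 libraries, against 2.93%, 5.1% and 4.22% of all genes. The median log2 ratio of the 10 genes was 1.65 for anti-PD-1, 1.32 in the anti-CTLA-4 library and 0.33 in the combination library, beside −0.01, −0.05 and −0.04 over all genes compared. The 3 comparisons share the same control library.

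Gzma had 4823 CPM (4739 to 4908) in the anti-PD-1 library, 3625 (3562 to 3688) in the anti-CTLA-4 library and 1707 (1665 to 1751) in the combination library, against 1510 (1470 to 1551) in the control library. All 4 intervals stood apart, with both single-antibody libraries high and the combination library 0.18 (0.12 to 0.23) above the control library on the log2 scale. The log2 ratio to control was 1.68 (1.63 to 1.72) for anti-PD-1 and 1.26 (1.22 to 1.31) for anti-CTLA-4. The share of cells with Gzma was 41.7%, 39.8% and 26.0%, against 26.3% in the control library, and after thinning 36.6%, 31.8% and 21.5%, against 22.2%. The small excess of the combination library was not kept when cells were thinned, where its ratio was −0.30, or without cluster 14, where it was −0.23.

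Prf1 followed the same order at a much lower count. It had 111 CPM (98.3 to 124) in the anti-PD-1 library, 82.2 (72.9 to 92.3) in the anti-CTLA-4 library, 40.2 (33.9 to 47.4) in the combination library and 31.6 (26.0 to 38.1) in the control library. The combination and control intervals overlapped, and the other pairs did not. A single cell held 23.4% of the 290 Prf1 UMIs of the anti-PD-1 library. The log2 ratios to control were 1.81 (1.49 to 2.14), 1.38 (1.06 to 1.71) and 0.35 (−0.02 to 0.72) for the anti-PD-1, the anti-CTLA-4 and the combination library.

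Gzmb differed less. It had 2521 CPM (2461 to 2583) in the anti-PD-1 library, 2360 (2310 to 2412) in the anti-CTLA-4 library, 1424 (1385 to 1464) in the combination library and 1857 (1812 to 1902) in the control library. Both single-antibody libraries were above the control library and the combination library was below it, by 0.44 (0.39 to 0.49), 0.35 (0.30 to 0.39) and −0.38 (−0.44 to −0.33) on the log2 scale, all short of 2-fold. The anti-CTLA-4 difference was 0.02 after thinning and −0.0061 as a mean over cells. The share of cells with Gzmb was 54.5%, 57.3% and 43.2%, against 54.6% in the control library.

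Gzmk was the exception to this order. It had 161 CPM (148 to 174) in the combination library, 135 (123 to 148) in the anti-CTLA-4 library and 93.1 (81.8 to 106) in the anti-PD-1 library, against 78.9 (69.8 to 88.7) in the control library. The combination library was highest, with a log2 ratio of 1.03 (0.82 to 1.24), close to the limit of 2-fold, and the anti-CTLA-4 ratio was 0.78 (0.56 to 1.00). The anti-PD-1 interval overlapped that of the control library. Gzmk was found in 21.4% of the combination cells, 17.3% of the anti-CTLA-4 cells and 11.5% of the anti-PD-1 cells, against 12.1% of the control cells.

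The 5 granzymes of the chromosome 14 group were carried by few cells. Gzmf had 687 CPM in the anti-PD-1 library, 758 in the anti-CTLA-4 library, 295 in the combination library and 184 in the control library, from 3.49%, 8.02%, 3.304% and 2.63% of the cells. The 10 cells richest in Gzmf held 92.9%, 57.7%, 85.5% and 83.7% of its UMIs in these libraries. Its log2 ratios to control were 1.90, 2.04 and 0.68. Gzmg had 449, 305 and 111 CPM in the anti-PD-1, the anti-CTLA-4 and the combination library, against 146 in the control library, and 1 control cell alone held 48.1% of the control UMIs. Gzmc, found in 14.1%, 22.6% and 9.02% of cells, against 8.11% in the control library, was less concentrated, with 45.0%, 22.7% and 44.4% of its UMIs in 10 cells, against 47.7%. Gzmc had 903, 941 and 519 CPM, against 351 in the control library. Gzmd had 677, 681 and 295, against 237, and Gzme 326, 212 and 104, against 95.4. For Gzmc to Gzmg, intervals of both single-antibody libraries lay above that of the control library, and for Gzme the combination interval overlapped it, while for Gzmg the combination library lay below the control library (log2 ratio −0.40, −0.59 to −0.21). The direction of this Gzmg ratio rested on few cells. It was 2.72 without the 10 cells richest in Gzmg of each library and 1.75 without cluster 14, and stayed below 0 in the other alternatives. By contrast, the 10 richest cells held 19.05%, 17.1% and 28.4% of Gzma UMIs, against 19.1% in the control library.

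**Figure D2:**
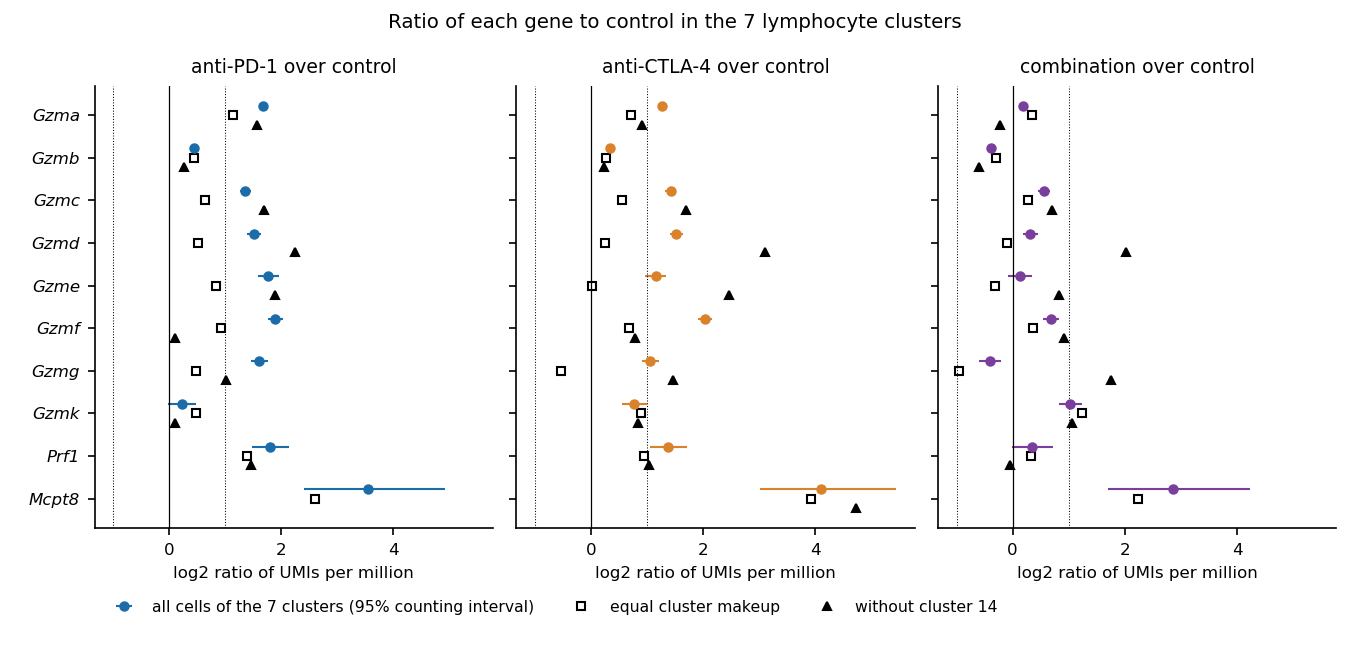
Log2 ratio of CPM to the control library (horizontal axis) for each gene (vertical axis) in the 7 lymphocyte clusters joined; filled circles are all cells with 95% counting intervals, open squares give every library the same cluster makeup, triangles leave out cluster 14 (not drawn where the pair had under 20 UMIs), and dotted lines mark 2-fold. For Gzmc to Gzmg the squares lie left of the circles in all 3 panels, while for Gzmk they lie to the right of the circles.

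The joined levels depend on how many cells of each cluster a library held. Cluster 14 made up 3.39% (2.38 to 4.69) of the lymphocytes in the anti-PD-1 library, 6.60% (5.18 to 8.27) in the anti-CTLA-4 library and 2.34% (1.63 to 3.25) in the combination library, against 1.80% (1.18 to 2.63) in the control library. Cluster 5 made up 29.2%, 20.7% and 11.2%, against 21.5%. In a joined sum, more cells of a type and more RNA of a gene per cell cannot be told apart. When each library was given the same cluster makeup, the number of the 10 genes at least 2-fold higher was 3 for anti-PD-1 (Gzma at 1.15, Prf1 at 1.39 and Mcpt8 at 2.60), 1 for anti-CTLA-4 (Mcpt8 at 3.93) and 2 for the combination (Gzmk at 1.24 and Mcpt8 at 2.24). Gzmg with anti-CTLA-4 then turned to −0.52. Without cluster 14 the counts were 6, 6 and 3. Mcpt8 was then not compared for anti-PD-1 and the combination, where the pair held under 20 UMIs. The 3 for the combination were Gzmd (2.03), Gzmg (1.75) and Gzmk (1.06). Shares over all genes were not recomputed for equal makeup or without cluster 14, so these counts have none beside them.

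Set against each single antibody, the combination library was lower in most of these genes. Compared with the anti-PD-1 library, 6 of 10 were at least 2-fold lower (Gzma, Gzmd, Gzme, Gzmf, Gzmg and Prf1), against 3.97% of 9412 genes, and none was higher, against 2.74%. Compared with the anti-CTLA-4 library, 7 of 10 were lower (the same 6 and Mcpt8), against 3.13% of 9596 genes, and none was higher, against 3.05%. The log2 ratios for Gzma were −1.498 (−1.54 to −1.45) to anti-PD-1 and −1.09 (−1.13 to −1.04) to anti-CTLA-4, and for Prf1 −1.46 (−1.76 to −1.17) and −1.03 (−1.33 to −0.74). Gzmk again went the other way, at 0.79 (0.57 to 1.01) and 0.25 (0.07 to 0.43). With equal cluster makeup the counts were 3 and 1, again with no share over all genes. The ratios for Gzmf and Gzmg changed sign without cluster 14, to 0.81 and 0.74 against anti-PD-1 and 0.14 and 0.27 against anti-CTLA-4.

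Within single clusters the cell makeup is narrower. In the NK cell-like cluster 5, Gzma, Gzmb and Prf1 were each at least 2-fold higher in the anti-PD-1 library than in the control library, and Gzmb and Prf1 were at least 2-fold lower in the combination library than in either single-antibody library. Gzmb had 4253 CPM (4087 to 4423) in the anti-PD-1 library, 2703 (2560 to 2851) in the anti-CTLA-4 library and 987 (880 to 1102) in the combination library, against 1392 (1301 to 1488) in the control library. No intervals overlapped, and the log2 ratios to control were 1.61 (1.499 to 1.72), 0.96 (0.83 to 1.08) and −0.50 (−0.69 to −0.31). Gzma had 12096 (11815 to 12381), 8202 (7953 to 8458) and 6026 (5759 to 6303), against 5420 (5238 to 5607) in the control library. Prf1 had 175 (142 to 212), 133 (103 to 169) and 59.9 (36.1 to 93.5), against 69.5 (50.3 to 93.7). Both single-antibody libraries were high in Gzma and Prf1, and for Prf1 the combination and control intervals overlapped.

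By the fold rule, 3 of the 7 genes compared in cluster 5 were higher with anti-PD-1 (3.8% of all genes) and 1 lower (Gzmf, from 5 UMIs in that library, against 6.19% of all genes). With anti-CTLA-4, 2 of 7 were higher (Gzmc and Gzmd, against 3.83%), and with the combination 2 of 7 (Gzmd and Gzmf, against 4.54%). Gzmf and Gzmd rested on few cells: in the combination library 1 cell held 71.4% of the 28 Gzmf UMIs and 40.6% of the 32 Gzmd UMIs. The combination over the anti-PD-1 library had 3 lower genes (Gzma, Gzmb and Prf1, against 6.66%) and 3 higher (Gzmd, Gzmf and Gzmk, against 5.02%), and over the anti-CTLA-4 library 3 lower genes (Gzmb, Gzmc and Prf1, against 5.52%). The log2 ratio of Gzmb was −2.11 (−2.28 to −1.94) to anti-PD-1 and −1.45 (−1.64 to −1.28) to anti-CTLA-4.

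The differences in cluster 5 were seen in the number of positive cells as well. Gzma was found in 90.4%, 86.3% and 84.05% of the cells in the anti-PD-1, the anti-CTLA-4 and the combination library, against 77.7% in the control library, and after thinning in 85.5%, 82.3% and 80.6%, against 73.0%. Gzmb was found in 69.1%, 70.3% and 47.2%, against 57.7%, and after thinning in 64.8%, 58.6% and 38.7%, against 48.5%. The 2 proteases were found together in 57.1% of all cluster 5 cells: Gzmb was detected in 67.6% of the cells with Gzma and in 33.1% of those without. Thinned to equal depth, these values were 60.5% and 29.1%. Of the cells with Prf1, 91.9% also had Gzma. Summed UMIs of 9 macrophage markers, all of them detected in this cluster in each library, were 1060 CPM with anti-PD-1, 2419 in the anti-CTLA-4 library and 1828 in the combination library, against 4709 in the control library, and their part in the differences was not tested. When cells with 2 or more macrophage UMIs were left out, the log2 ratios of Gzmb to control in cluster 5 were 1.56, 0.91 and −0.77, those of Prf1 1.101, 0.79 and −0.22, and those of Gzma 0.94, 0.52 and 0.11, so that Gzma with anti-PD-1 was then short of 2-fold.

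**Figure D3:**
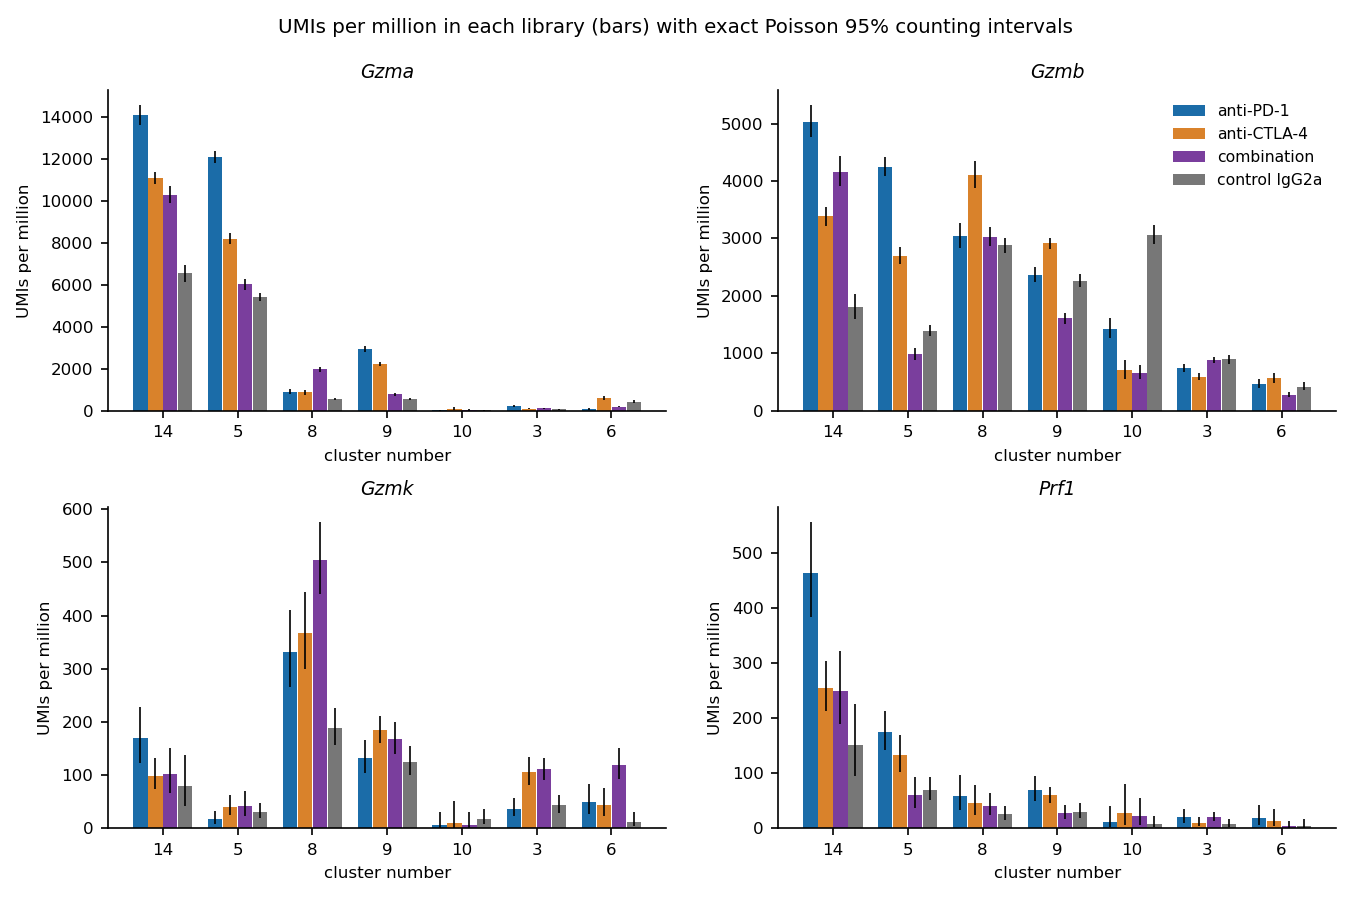
CPM (vertical axes, linear from 0) of Gzma, Gzmb, Gzmk and Prf1 in each lymphocyte cluster (horizontal axes), with 1 bar per library in the order anti-PD-1, anti-CTLA-4, combination and control, and exact Poisson 95% intervals. Gzmb in cluster 5 is highest with anti-PD-1 (4253), Gzmb in cluster 10 is highest in the control library (3064), and Gzmk in cluster 8 is highest with the combination (505).

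The NK cell-like cells were split by the authors' second table, of lymphoid cells alone, mainly into its clusters 0 (709 of the 993 cells) and 9 (247 cells). Among the cluster 5 cells of lymphoid cluster 0, Gzma had 12259 CPM in the anti-PD-1 library, 7326 in the anti-CTLA-4 library and 6509 in the combination library, against 5200 in the control library. Among those of lymphoid cluster 9 it had 12070, 12754 and 5632 (5070 to 6238), against 7079 (6634 to 7545). Gzmb had 4392, 2407 and 1097 (967 to 1239), against 1398 (1291 to 1511), in the cells of lymphoid cluster 0, and 4095, 1972 and 706 (517 to 942), against 1476 (1277 to 1697), in those of lymphoid cluster 9. In both sets of cells Gzma and Gzmb were higher in each single-antibody library than in the control library, and Gzmb was lower in the combination library than in the control library. Gzma in the combination library was above control in the cells of lymphoid cluster 0 and below it in those of lymphoid cluster 9. Prf1 was higher with the single antibodies in the cells of lymphoid cluster 0 alone. It had 187 (147 to 235), 149 (111 to 196) and 50.8 there, against 50.6 (32.1 to 76.0) in the control library. In those of lymphoid cluster 9 it had 154 (103 to 223), 115 (61.5 to 197) and 92.1, against 150 (91.5 to 231), and these intervals overlapped.

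In the Cd8-led cluster 8, the combination library stood out, and the genes concerned were Gzma and Gzmk. Gzmk had 505 CPM (441 to 575) in the combination library, 367 (300 to 445) in the anti-CTLA-4 library and 332 (265 to 411) in the anti-PD-1 library, against 189 (157 to 226) in the control library. Gzma had 1973 (1845 to 2109) in the combination library, 879 (773 to 995) with anti-CTLA-4 and 911 (798 to 1036) with anti-PD-1, against 557 (500 to 618). For both genes all antibody libraries were above the control library, and for Gzma the combination stood clear of both single antibodies, whose intervals overlapped. The log2 ratios of the combination to control were 1.42 (1.09 to 1.75) for Gzmk and 1.83 (1.65 to 2.01) for Gzma, and to the anti-PD-1 and the anti-CTLA-4 libraries 1.12 (0.91 to 1.33) and 1.17 (0.96 to 1.38) for Gzma.

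Gzmb, the most abundant granzyme of cluster 8, had 3045 CPM with anti-PD-1, 4109 in the anti-CTLA-4 library and 3028 in the combination library, against 2879 in the control library. Its log2 ratios to control were 0.08 (−0.04 to 0.20), 0.51 (0.41 to 0.62) and 0.07 (−0.03 to 0.18). In the cluster as a whole, the anti-CTLA-4 library alone lay outside the counting error of the control library. Counts of genes at least 2-fold higher in cluster 8 were 1 of 6 with anti-PD-1 (Prf1, with 15 and 16 UMIs, against 6.81% of all genes), 2 of 7 with anti-CTLA-4 (Gzmc and Gzmd, 6.37%) and 2 of 6 with the combination (Gzma and Gzmk, 5.59%). Lower were 2 with anti-PD-1 (Gzmc and Gzmf, 6.12%) and 1 with the combination (Gzmc, 6.07%). Gzmc had 6 UMIs with anti-PD-1, 71 in the anti-CTLA-4 library and 12 in the combination library, against 68 in the control library, of which 1 cell held 38.2%.

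More of the cluster 8 cells carried Gzmk. It was found in 51.1% of the anti-PD-1 cells, 51.6% of the anti-CTLA-4 cells and 61.5% of the combination cells, against 32.0% of the control cells, and after thinning in 28.9%, 34.1% and 41.1%, against 18.6%. Gzma was found in 29.3%, 38.5% and 45.8%, against 20.2%. Both genes were found in the same cell in 17.4%, 20.9% and 32.3% of cells, against 8.30% in the control library, and Gzmb with Gzmk in 40.2%, 45.1% and 48.4%, against 25.7%. Cells with Gzma had Gzmb in 89.6% of cases, and cells without it in 73.8%. Cd8a or Cd8b1 was detected in 86.96%, 91.2% and 85.9% of the cells, against 96.4% in the control library. The macrophage markers summed to 3698, 1073 and 1136 CPM, against 1210, and were highest in the anti-PD-1 library, with Apoe at 0 in the anti-CTLA-4 library; their part was not tested.

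The second table split the cluster 8 cells mainly into lymphoid clusters 5 and 8, in shares that differed between the libraries. Lymphoid cluster 8 held 23.9% of the cluster 8 cells in the anti-PD-1 library, 38.5% in the anti-CTLA-4 library and 50% in the combination library, against 17.8% in the control library. Gzmk had 391 (228 to 625), 542 (375 to 757) and 624 (510 to 756) CPM in these cells, against 252 (158 to 382), and 345, 352 and 426 in the cells of lymphoid cluster 5, against 179 (145 to 219). It was highest in the combination library and lowest in the control library in both, but in lymphoid cluster 8 the single-antibody intervals overlapped that of the control library. Gzma did not keep one direction with the single antibodies. In the cells of lymphoid cluster 5 it had 1036 (896 to 1190), 1093 (949 to 1252) and 2211 (2030 to 2403) CPM, against 546 (485 to 613). In those of lymphoid cluster 8 it had 299 (159 to 511), 335 (207 to 512) and 1859 (1658 to 2078), against 711 (545 to 912), so that both single-antibody libraries lay below the control library and the combination library lay above it. Gzmb with anti-CTLA-4 also went in opposite directions. It had 5207 CPM (4888 to 5541), against 3040 (2893 to 3192) in the control library, in the cells of lymphoid cluster 5. In those of lymphoid cluster 8 it had 1402 (1125 to 1728), against 2065 (1774 to 2389).

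The regulatory T cell-like cluster 10 showed the opposite pattern for Gzmb, its only abundant member of the 10. Gzmb had 1429 CPM (1260 to 1615) in the anti-PD-1 library, 706 (557 to 883) in the anti-CTLA-4 library and 666 (555 to 792) in the combination library, against 3064 (2897 to 3238) in the control library. All 3 antibody libraries were at least 2-fold below the control library and clear of its interval, with log2 ratios of −1.101 (−1.30 to −0.91), −2.12 (−2.47 to −1.78) and −2.20 (−2.48 to −1.94), against 10.5%, 15% and 8.86% of all genes that were lower by the same rule in this cluster. The anti-CTLA-4 and combination intervals overlapped. Gzmb was found in 47.6%, 41.7% and 27.5% of the cells, against 74.7%, and after thinning in 40.6%, 30.0% and 23.1%, against 66.5%.

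The makeup of cluster 10 differed between the libraries too. Foxp3, the defining factor of regulatory T cells, was detected in 23.2%, 16.7% and 18.7% of its cells, against 37.9% in the control library. Among cells with a Foxp3 UMI (19, 8 and 17, against 69), Gzmb had 2156 CPM (1657 to 2758), 1592 (1009 to 2389) and 403 (201 to 722), against 4621 (4291 to 4969). Among cells with none (63, 40 and 74, against 113), it had 1288, 571 and 710, against 2101. The control library was highest in both. In lymphoid cluster 7, which was led by Foxp3 as well, Gzmb had 2710, 1879 and 744, against 3565. Gzmc in cluster 10 had 38 UMIs with anti-PD-1 and 4 in the control library, and 97.4% of the 38 came from 1 cell. Of the 2 genes compared here, 1 was higher in each antibody library: Gzmc with anti-PD-1 (against 7.44% of all genes), Gzma with anti-CTLA-4 (8.9%) and Gzmc in the combination library (6.14%). The macrophage markers summed to 790, 358 and 2512 CPM in this cluster, against 2700 in the control library, with C1qc, Adgre1 and Apoe at 0 in the anti-CTLA-4 library and Adgre1 at 0 in the combination library, and their part in the result was not tested.

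Cluster 9, led by cell cycle genes, mixed cells of several kinds. Gzma had 2960 CPM (2817 to 3108) with anti-PD-1, 2237 (2152 to 2324) in the anti-CTLA-4 library and 783 (722 to 848) in the combination library, against 575 (519 to 635) in the control library. The log2 ratios to control were 2.36 (2.20 to 2.53), 1.96 (1.81 to 2.12) and 0.45 (0.26 to 0.63). Ncr1 was detected in 20.4%, 12.4% and 2.78% of these cells, against 12.4%, so the libraries differed in their share of NK cell receptor-bearing cells. They differed in T cell makeup too. Cd8a or Cd8b1 was detected in 44.4%, 50% and 31.25% of the cells, against 69.3% in the control library. Cd4 was detected in 13.9%, 24.8% and 37.5%, against 8.03%.

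Split by Ncr1 and Cd3, the cells with Ncr1 and no Cd3 UMI (16, 17 and 2, against 11 cells) had 10161, 12542 and 6905 CPM of Gzma, against 3048 in the control library. Cells with Cd3 and no Ncr1 (80, 173 and 139, against 120) had 770 (685 to 862), 846 (791 to 905) and 603 (548 to 662), against 245 (208 to 288). In the Cd3 cells the control library lay below all 3 antibody libraries, with the mix of Cd8 and Cd4 cells among them not held equal. By the fold rule 5 of 8 genes in cluster 9 were higher with anti-PD-1 (Gzma, Gzmc, Gzmd, Gzme and Prf1, against 5.03% of all genes) and 1 lower (Gzmf, with 1 UMI, against 5.1%). With anti-CTLA-4, 5 of 8 were higher (Gzma and Gzmc to Gzmf, 4.63%), and with the combination 2 of 8 (Gzmc and Gzmd, 5.79%). Gzmd in this cluster rested on single cells, with 94.3% of its UMIs in 1 cell of the combination library and all 15 control UMIs in 1 cell. Gzmb had 2363, 2913 and 1608 CPM, against 2259, and did not reach 2-fold in any library.

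**Figure D4:**
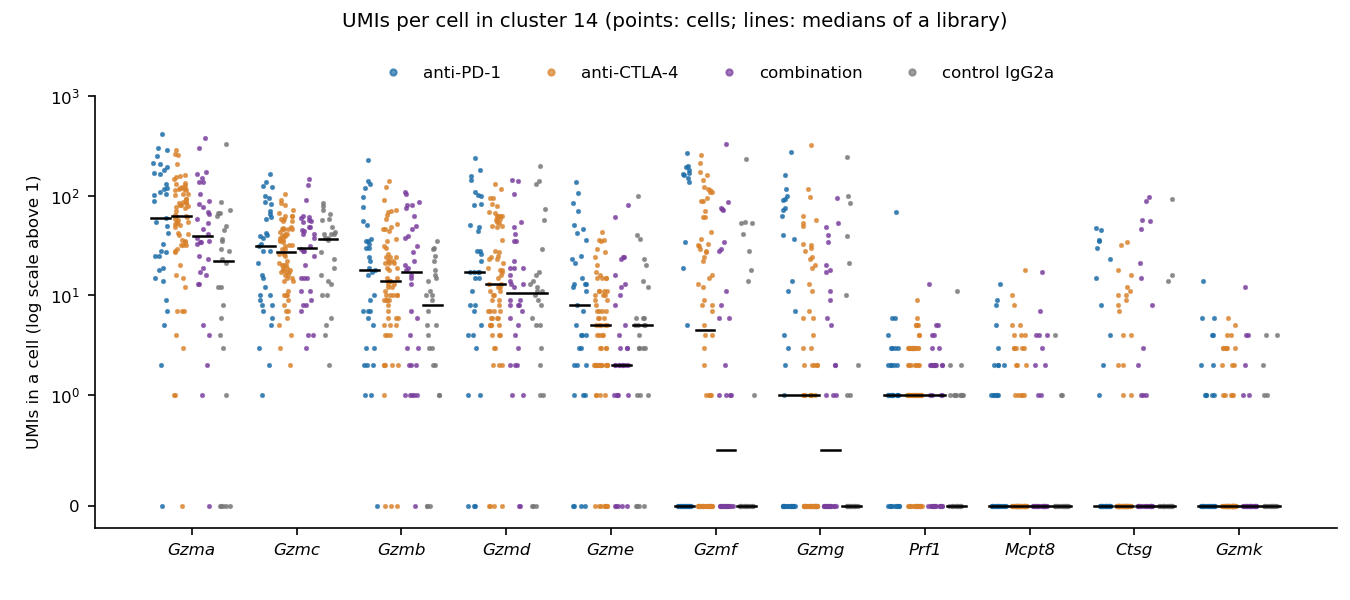
UMIs in each cell of cluster 14 (vertical axis, log scale above 1 with 0 below it) for the 10 genes and Ctsg (horizontal axis), 1 point per cell, coloured by library in the order anti-PD-1, anti-CTLA-4, combination and control, with short lines at the library medians. Gzma and Gzmc are found in nearly every cell, while Gzmf and Gzmg are at 0 in 84 and 85 of the 165 cells and reach 328 and 322 UMIs in others.

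Cluster 14 held 165 cells (35, 70 and 34, against 26) and most of the UMIs of Gzmc to Gzmg in listed cells, from 67.8% for Gzmc to 94.7% for Gzmg, but 15.1% of those of Gzmb. Its cells were large by UMI count, with medians of 6699, 6464.5 and 5548, against 5013.5 in the control library. Gzma was the gene with the fourth highest UMI count in the cluster, Gzmc ranked 22, Gzmf 27, Gzmd 31, Gzmb 54, Gzmg 79 and Gzme 114. In the cell richest in them, 11.8% of all UMIs came from the 10 genes. The 7 neighbours on chromosome 14 made up 3.19%, 2.05% and 1.94% of the cluster's UMIs, against 2.13%.

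Cells of cluster 14 shared Gzmc and differed in its neighbours. Gzmc was found in every one of the 165 cells, Gzma and Gzmb in 95.2%, Gzmd in 92.7%, Gzme in 87.3% and Prf1 in 65.5%, but Gzmf in 49.1%, Gzmg in 48.5%, Mcpt8 in 29.7%, Gzmk in 24.8% and the non-member Gzmn in 3.64%. For Gzmf, 84 cells had no UMI, 23 had 1 to 9 and 58 had 10 or more, of which 21 had 100 or more, so that few cells lay in between. Gzmg had 85, 35 and 45 cells in these classes. The median for Gzmc was 29 UMIs per cell. All of Gzmd, Gzme, Gzmf and Gzmg were found together in 12 of the 35 anti-PD-1 cells, 24 of 70 anti-CTLA-4 cells and 12 of 34 combination cells, against 4 of 26 control cells.

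The 165 cells came from 4 libraries and differed in depth. Across them, the closest pairs by Spearman's rho were Gzmg with Ctsg (0.67), Gzmd with Gzme (0.66, from 0.46 to 0.85 within single libraries) and Gzmf with Gzmg (0.60, from 0.49 to 0.82). With each cell thinned to the same depth the order changed: Gzmf with Gzmg was closest at 0.65, then Gzmg with Ctsg at 0.61 and Gzmd with Gzme at 0.53. The near-identity of Gzmd and Gzme reads bears on their pair. Gzmb and Gzma had a rho of 0.28. These values are descriptions of cells of 4 libraries.

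Within cluster 14, where members were used to form the cluster, Gzma, Gzmb, Prf1 and Mcpt8 were higher in all 3 antibody libraries than in the control library, with ratio intervals clear of 0. Gzmb had 5035 CPM (4763 to 5318) with anti-PD-1, 3385 (3224 to 3553) in the anti-CTLA-4 library and 4161 (3905 to 4429) in the combination library, against 1812 (1605 to 2039) in the control library. All 3 antibody libraries were above the control library, by 1.47 (1.29 to 1.67), 0.90 (0.72 to 1.09) and 1.199 (1.01 to 1.40) on the log2 scale. Gzma had 14101 (13644 to 14571), 11107 (10812 to 11407) and 10297 (9892 to 10714), against 6555 (6155 to 6974). Gzmc, found in every cell, had 6211, 4695 and 5472, against 5822, with log2 ratios of 0.09 (−0.03 to 0.21), −0.31 (−0.42 to −0.20) and −0.09 (−0.21 to 0.04). Gzmg had 4575, 2142 and 1535, against 3304, and was lower than control with anti-CTLA-4 and the combination. A single control cell held 48.9% of those Gzmg UMIs.

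By the fold rule, 6 of 10 genes were higher in cluster 14 with anti-PD-1 (Gzma, Gzmb, Gzmf, Gzmk, Prf1 and Mcpt8, against 9.69% of all genes), 1 with anti-CTLA-4 (Mcpt8, 9.21%) and 2 with the combination (Gzmb and Mcpt8, 9.83%), where Gzmg was lower (8.19%). Prf1 in the anti-PD-1 library rested on 1 cell, with 57.6% of its 118 UMIs. Compared with the anti-PD-1 library, 3 were lower with the combination (Gzme, Gzmf and Gzmg, against 8.88%). Macrophage markers summed to 3902, 690 and 918 CPM, against 4507. Adgre1 was at 0 in the combination library, and the part of these markers was not tested. Over 165 cells and 4 libraries, these levels rest on as few as 26 cells.

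**Figure D5:**
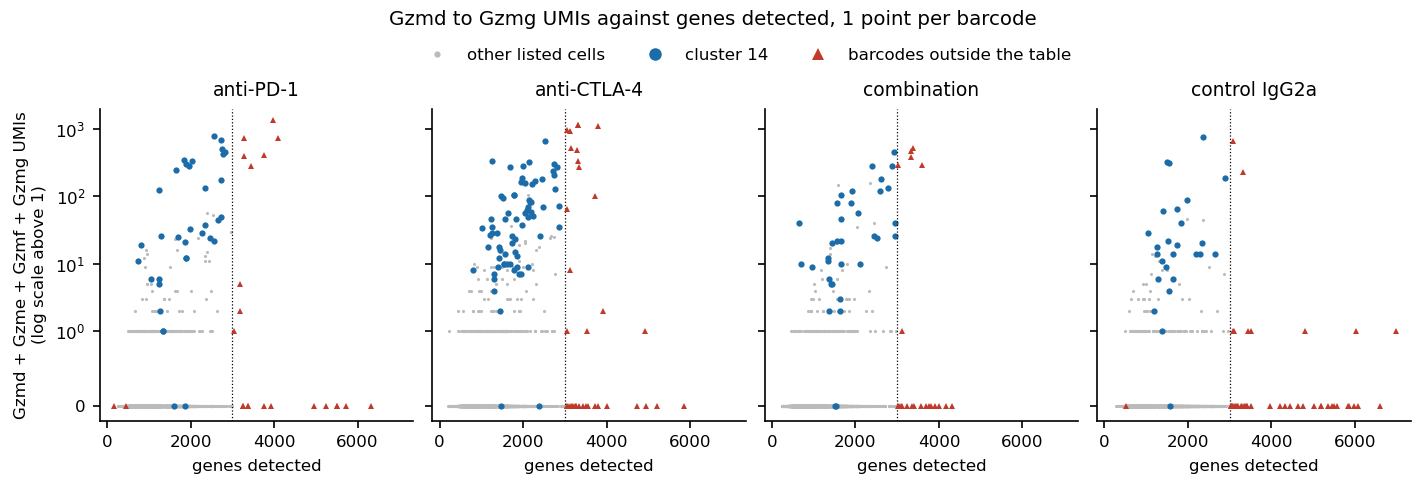
Summed UMIs of Gzmd, Gzme, Gzmf and Gzmg (vertical axis, log scale above 1 with 0 below it) against the number of genes detected (horizontal axis), 1 point per barcode and 1 panel per library; large circles are cluster 14, triangles are barcodes that the deposited cell table leaves out, and the dotted line marks 3000 genes. The highest sums in the anti-PD-1 and the anti-CTLA-4 panels belong to barcodes to the right of the line.

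Many UMIs of Gzmd to Gzmg lay outside the cells of the authors' table. The matrices held 127 more barcodes, 124 of them with over 3000 genes, and no more than 5 listed cells exceeded 3000 genes. Of these 127, 24 barcodes (6 with anti-PD-1, 11 in the anti-CTLA-4 library and 5 in the combination library, against 2 in the control library) had at least 10 UMIs of Gzmd to Gzmg. They held 43.5% of all UMIs of these 4 genes, or 40.7%, 50.3% and 40.2%, against 27.3% in the control library. Ncr1 was found in 23 of the 24, none had more than 1 Cd3 UMI, and their median level of macrophage markers was 354 CPM, against 353 in cluster 14 and 30892 in the macrophage cluster 1. They had 14975 to 27724 UMIs each. Whether a barcode is 1 cell or a pair of like cells was not tested.

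The summed level of Gzmd to Gzmg per library therefore depends on whether those barcodes are counted. In listed cells it was 516 CPM with anti-PD-1, 622 in the anti-CTLA-4 library and 249 in the combination library, against 179 in the control library. Over all barcodes it was 834, 1185 and 404, against 228. The order of the libraries was the same in both. Over all barcodes, the 10 richest cells held 67.4%, 54.4% and 68.1% of these UMIs, against 83.9%.

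Mcpt8 was found in 72 listed cells with 268 UMIs, and 49 of these cells, with 187 UMIs, were in cluster 14. Of the 49, 48 had no UMI of 8 basophil markers, 44 had Ncr1 and 49 had Gzma. Outside cluster 14, 5 cells with 3 or more basophil markers held 53 UMIs. Another 260 UMIs lay in 19 of the barcodes that the table leaves out. In the joined lymphocytes Mcpt8 had 61 UMIs with anti-PD-1, 119 in the anti-CTLA-4 library and 51 in the combination library, against 7 in the control library. The levels were 23.3, 34.2 and 14.3 CPM, against 1.99 (0.801 to 4.11), and all 3 intervals lay above that of the control library. Without the cells with basophil markers the levels were 23.3, 25.6 and 14.3, against 1.99. The ratio rests on 7 control UMIs, of which 1 cell held 57.1%. Counts of 8 mast cell markers in the joined cells, Cma1 among them, were 18.3, 139 and 35.2 CPM, against 9.11, highest with anti-CTLA-4. Of these, 2, 8 and 5 were detected, against 4. Cma1 was also found in 10.9% of the cells of cluster 14. The defining Fcer1a and Ms4a2 were at 0 except in the anti-CTLA-4 library, and the part of mast cells was not tested.

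The Cd4-led cluster 3 carried little of these genes. Gzmb had 742 CPM with anti-PD-1, 597 in the anti-CTLA-4 library and 886 in the combination library, against 894 in the control library. The control library was not highest in the cells of lymphoid clusters 2 and 4, which made up most of cluster 3. Gzmb had 760, 546 and 919 there, against 560 (463 to 672), in lymphoid cluster 2. In lymphoid cluster 4 it had 454, 615 and 454, against 303 (248 to 366). By the fold rule, 5 of 7 genes were higher with anti-PD-1 (Gzma and Gzmc to Gzmf, against 4.9% of all genes), 5 of 7 with anti-CTLA-4 (Gzmc to Gzmf and Gzmk, 4.36%) and 5 of 8 with the combination (Gzmc, Gzme, Gzmf, Gzmk and Prf1, 4.66%). Most of these rested on single cells: 1 cell held 81.7% of Gzmf in the combination library, 69.7% of Gzmk in the anti-CTLA-4 library and 62.9% of Gzma in the anti-PD-1 library. Gzmc had 141, 95.5 and 207 CPM, against 11.8 from 8 UMIs in the control library.

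In cluster 6, Gzmk was higher with the combination, at 119 CPM, against 12.01 from 4 UMIs in the control library (log2 ratio 3.31, 1.89 to 5.22, with 6.78% of all genes as high). Gzma was lower with anti-PD-1 (81.6) and with the combination (203), against 426 in the control library, beside 6.51% and 6.28% of all genes. With anti-CTLA-4, where Gzma had 621, 2 of 4 genes were higher by the rule (Gzmc and Mcpt8, against 5.77%), and 1 cell held 96.7% of the 30 Mcpt8 UMIs. Of the 142 control Gzma UMIs, 1 cell held 58.5% and cells with Ncr1 held 105. Among cells with Cd3 and no Ncr1, Gzma had 65.4, 319 and 152 CPM, against 30.7, so that the control library was then lowest.

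Genes that act with the granzymes were compared in the same way. Among all genes compared, 2.72% were higher and 2.93% lower with anti-PD-1, 3.17% and 5.1% with anti-CTLA-4, and 2.68% and 4.22% with the combination. These shares stand beside all the lists that follow. Of 21 genes of granule biogenesis and release, none differed 2-fold from control in the joined lymphocytes of any antibody library. A count of none out of 21 is near those shares. Their median log2 ratios were 0.05, −0.14 and −0.02 for the anti-PD-1, the anti-CTLA-4 and the combination library. Of 7 granzyme inhibitors and targets, Serpinb9b, a rodent relative of the granzyme B inhibitor Serpinb9, was higher with both single antibodies. It had 137, 139 and 53.5 CPM, against 48.1 in the control library, with log2 ratios of 1.51, 1.53 and 0.15. Of 9 other killing ligands and effector cytokines, Ifng, the type II interferon, was higher with anti-PD-1 (193) and the combination (203), against 88.8 in the control library, and had 92.0 with anti-CTLA-4. The chemokine Xcl1 and the death ligand Tnfsf10 were lower with the combination, by log2 ratios of −2.12 and −1.02. Xcl1 had 208 with anti-PD-1, 128 in the anti-CTLA-4 library and 45.9 in the combination library, against 200.

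Of 16 regulators of cytotoxic genes, Bhlhe40, a helix-loop-helix factor of activated lymphocytes, was higher with anti-CTLA-4 (297) and the combination (325), against 133 in the control library, and had 220 with anti-PD-1. Tox was lower with anti-CTLA-4, by a log2 ratio of −1.16. Of 9 other proteases of the family, 3 had enough UMIs to be compared. Ctsg had 97.3, 52.6 and 118 CPM, against 36.2, and was higher with anti-PD-1 and the combination. Cma1, a mast cell chymase, had 9.54, 69.3 and 29.3, against 5.12, and was higher with anti-CTLA-4 and the combination. Over the 4 libraries it had 151 CPM in cluster 6, from 0.504% of the cells. In clusters 14 and 5 it had 85.0 and 29.3, from 10.9% and 3.22%. Gzmm had 10.3, 6.61 and 9.85, against 7.12.

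Across the 19 clusters, the genes whose level was most like that of each member were found by Pearson's correlation of log2 levels (10 CPM added) among 8984 genes with at least 200 UMIs, of which the 10 members were left out of the ranking. These points share depth and free RNA, and the values are a description. Among these other genes, Gzma was most like Klre1 (0.98), an NK cell lectin-like receptor, then Eomes (0.94), a T-box factor of cytotoxic cells. Prf1 was most like Eomes and Fcrl6 (0.96 each). Gzmg was most like Ctsg (0.98), and Gzmd (0.91) and Gzme (0.90) like Dsc2, a desmosomal cadherin. Gzmk was most like Lcn4 (0.96) and Klrc2 (0.94), and Gzmb like Sh2d2a (0.96), a T cell adapter. Some members were more like each other than like any of these: Gzmd and Gzme reached 0.99, Gzmc and Prf1 0.97 and Gzme and Gzmf 0.96. Gzma and Prf1 reached 0.95, while Gzmb and Gzmg reached 0.40 and Gzmk and Mcpt8 0.33. Over the 12 clusters of the lymphoid table instead, 0 or 1 of the 3 nearest genes were shared.

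A lymphocyte carried few of these genes at once. No member was found in 28.0% of the anti-PD-1 cells, 28.7% of the anti-CTLA-4 cells and 40.5% of the combination cells, against 33.3% of the control cells. At least 5 were found in 4.36%, 9.91% and 3.10%, against 2.08%. Together the 10 genes made up 1.06%, 0.913% and 0.467% of all lymphocyte UMIs, against 0.449% in the control library, so that the combination library was nearest to control in the summed measure.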

How the data were processed

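The deposited matrices hold whole-number UMI counts per gene and barcode. They were made by the authors with Cell Ranger and Seurat against mm10, per the submitters' processing notes, with versions not given there. Cluster numbers come from the authors' deposited tables of CD45+ cells and of lymphoid cells. The lymphoid table holds the cells of 7 clusters of the first (3, 5, 6, 8, 9, 10 and 14), and 2 cells listed in each had no matrix column. Listed cells of at least 2 libraries shared 109 barcodes.

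Counts were summed per library and cluster and divided by all UMIs of the same cells, with 95% intervals. Shares were also taken after thinning each cell to 1000 UMIs, which left out 114 anti-PD-1, 60 anti-CTLA-4, 189 combination and 5 control lymphocytes. The 2-fold rule needed 20 UMIs in a pair. Doublets were not removed in the values as given: leaving out the 3% of cells with the highest Scrublet score, or with the most UMIs, were alternatives. Genes named are the 10 members, genes of the lists that had at least 20 UMIs, lineage markers, and the 3 genes most like each member. The members, lists and comparisons were chosen with earlier results of these data known. Interval and likeness calculations were tested on simulated data. Python 3.11.15, numpy 2.4.6, pandas 2.3.3, scipy 1.17.1, scanpy 1.11.5 and Biopython 1.88 were used.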

Additional observations from a re-analysis of the deposited data

Results flagged for a closer look

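The same gene differed from control in opposite directions in different clusters in 7 cases, and in each of them the difference between the clusters was not tested. The log2 ratios below have 1 library on each side. With anti-PD-1, Gzmb was at 1.61 in the NK cell-like cluster 5 and at −1.101 in the regulatory T cell-like cluster 10. With the combination, Gzmb was at 1.199 in cluster 14 and at −2.20 in cluster 10. With anti-PD-1, Gzma was at 2.36 in cluster 9 and at −2.39 in cluster 6, and with the combination it was at 1.83 in cluster 8 and at −1.07 in cluster 6, where 1 cell held 58.5% of the control UMIs.

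The other cases rest on few cells. Gzmc was at 4.44 in cluster 10 and at −2.18 in cluster 8 with anti-PD-1, and at 4.13 in cluster 3 and −1.97 in cluster 8 with the combination. Gzmf with anti-PD-1 was at 2.31 in cluster 3 and at −4.44 in cluster 9, from 1 UMI against 27.

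Barcodes that the deposited cell table leaves out held Gzmd to Gzmg at 8032 CPM in the anti-PD-1 library, 10800 in the anti-CTLA-4 library and 5893 in the combination library, against 824 in the control library.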

How the results depend on the processing

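Over 14 alternatives, 61 of 70 counts of members past 2-fold stayed within 1.5 times the value given, and 9 did not. In 1 of the 14, all cells of the lymphoid table, the cells were the same as those joined. Its counts and 50 ratio values could not move and are among those that stayed. With anti-PD-1 over control, 8 became 5 without the 3% of cells with most UMIs and 3 with equal cluster makeup. With anti-CTLA-4 over control, 8 became 1 with equal makeup. For the combination over control, 2 became 1 after thinning, without cells with 2 or more macrophage UMIs, without the highest Scrublet scores and without the cells with most UMIs. Lower genes in the combination became 3 of 6 against anti-PD-1 and 1 of 7 against anti-CTLA-4 with equal makeup. Shares over all genes were not recomputed under the alternatives. Of 1858 recomputed values of 212 ratios, 1201 moved by less than counting error, 643 moved by more and 14 changed sign. Sign changes were counted only for ratios of at least 2-fold in the values given. Smaller ratios that changed sign are among the 1201 or the 643. An example is Gzmg with the combination over control, at −0.40 as given and 2.72 without the 10 richest cells.

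Without cells with 2 or more macrophage UMIs, Gzmg with anti-CTLA-4 over control turned to −1.095 in the joined clusters and −1.145 in the whole library, and Gzmg with the combination over anti-CTLA-4 to 0.56. Without those cells, Gzmf turned to −0.84 (anti-CTLA-4) and −1.92 (combination) in cluster 3, and −0.20 with anti-CTLA-4 in cluster 9. Equal makeup gave Gzmg −0.52 with anti-CTLA-4. Without cluster 14, the combination turned to 0.81 (Gzmf) and 0.74 (Gzmg) over anti-PD-1, and to 0.14 (Gzmf) and 0.27 (Gzmg) over anti-CTLA-4. In cluster 6, Gzma with the combination turned to 2.10 without the 10 richest cells. In cluster 9, Gzme with anti-PD-1 turned to −0.17 and Gzmc with the combination to −0.33 without the 3% of cells with most UMIs. Except for equal makeup, these alternatives leave fewer cells, and the causes of the changes were not tested. Gzma with anti-PD-1 ranged over 1.15 to 1.94, Prf1 over 1.39 to 1.93 and Gzmk with the combination over 1.00 to 1.37. The alternatives that add barcodes outside the table, or leave out cells with basophil markers, were chosen after seeing the data.

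No paired analysis was possible because each group was 1 library. For the same reason no library was left out in turn, and no result has a replicate. Depth limits the low genes: Mcpt8 and Prf1 had 7 and 111 control UMIs in all lymphocytes.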
